A study of Homo sapiens with 6 samples.

Results

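Hemidesmosomes are the junctions that fix basal epithelial cells to the basement membrane, the sheet of matrix that a ductal carcinoma in situ (DCIS) has to breach to become invasive. The RNA of 8 genes of this junction and of its laminin ligands was followed in DCIS.COM cells with and without knockdown of BCL9. The genes were ITGA6 and ITGB4 for the α6β4 integrin, COL17A1 for collagen XVII, DST and PLEC for the plakins, and LAMA3, LAMB3 and LAMA5 for epithelial laminin chains. They were taken by gene name from the 58676 genes of the deposited table, all 8 were found, and all 8 passed the filter on low expression with 13745 genes tested.

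The established line DCIS.COM serves as a model of DCIS of the basal type. Cells were transduced with lentiviral PLKO.1 vectors, and the NS control carried a non-silencing shRNA while the BCL9 KD cells carried an shRNA against BCL9, a coactivator of β-catenin. Each group had 3 flasks of cells as replicates, grown in the same medium with horse serum, and the labels do not mention separate transductions, so p-values measure the spread between flasks, which may be technical. The knockdown rests on 1 shRNA sequence in 1 cell line.

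In an epithelial cell, α6β4 integrin binds laminin-332 outside the cell and plectin inside, while collagen XVII spans the membrane and the epithelial form of dystonin, like plectin, holds keratin filaments. Laminin-332 is a trimer whose α3 and β3 chains are encoded by LAMA3 and LAMB3, and laminins with the α5 chain of LAMA5 are part of most epithelial basement membranes. Loss of these parts in the skin leads to blistering, and in breast tissue the basement membrane with its hemidesmosomes marks the boundary between DCIS and invasion.

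BCL9 itself was read at 6.25, 6.24 and 5.34 FPKM (fragments scaled to gene length and to the reads counted in the sample) in the NS control flasks and at 2.86, 2.78 and 2.59 FPKM after knockdown. Its mean was 53.9% lower, with no overlap, and the log2 fold change of -0.99 had an adjusted p-value of 0.00773 by limma, so the targeted gene matched the labels of all 6 samples. Between 15222452 and 26949026 reads were counted on genes per sample. Basal epithelial markers were present in the line, since the keratin genes KRT5, KRT14 and KRT17 and the gene TP63 were all detected. The summed level of these markers was 960.02 to 1130 FPKM in NS control and 998 to 1054 FPKM in BCL9 KD samples. Of 7 luminal markers, 5 had a mean of at least 0.5 FPKM with KRT8 and KRT18 leading, their sum was 435 to 552 FPKM in NS control and 396 to 414 FPKM in BCL9 KD, and ESR1 and PGR were near or at 0. The 4 myoepithelial contractile markers summed to 11.9 to 12.6 FPKM in NS control and 8.56 to 8.95 FPKM in BCL9 KD, almost all of it MYLK, with CNN1 at 0 in every sample. Fibroblast markers reached at most 0.743 FPKM in sum, the 3 leukocyte markers summed to 0.778 to 1.38 FPKM in BCL9 KD and 0.294 to 0.560 FPKM in NS control, and the 3 endothelial markers to 3.15 to 3.95 and 1.75 to 2.34 FPKM. The leukocyte sum was nearly all CD14 with PTPRC and CD3E at or near 0, the endothelial sum nearly all PECAM1 with VWF and CDH5 near 0. By the same limma test as the members, PECAM1 was called higher (log2 fold change 0.61, adjusted p = 0.0477) and MYLK lower (-0.46, adjusted p = 0.0199), while no leukocyte marker was called (CD14 at an adjusted p of 0.0811), and the part of these markers in the results was not tested. In such bulk RNA, fewer cells of a type and less RNA per cell cannot be told apart.

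NS control replicate 1 stood apart from the other samples in genes with AT-rich transcripts. For the fifth of the genes with the lowest transcript GC content, its values had a median deviation of -0.44 on the log2 scale from the mean of the 6 samples, against -0.05 and 0.14 in the other NS control and 0.09 to 0.16 in the BCL9 KD samples. The members ranged in transcript GC from 41.5% for DST and 42.9% for ITGA6 to 65.3% for LAMA5 and 66.8% for PLEC, with LAMA3 at 48.4% and COL17A1 at 54.0%.

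Promoter sequences are shown for COL17A1 and LAMA3, the members with the clearest differences among those whose windows were used. LAMB3 is shown as the partner chain of LAMA3. The windows came from the RefSeq-based table of GRCh38.p14. Each window runs from 250 bases before to 50 bases after an annotated transcript start, and 11 windows of 6 members were found. Capitals mark matches to TGANTCA, the recognition sequence of AP-1 transcription factors, read on both strands.
COL17A1, chr10:104085831-104086130, minus strand: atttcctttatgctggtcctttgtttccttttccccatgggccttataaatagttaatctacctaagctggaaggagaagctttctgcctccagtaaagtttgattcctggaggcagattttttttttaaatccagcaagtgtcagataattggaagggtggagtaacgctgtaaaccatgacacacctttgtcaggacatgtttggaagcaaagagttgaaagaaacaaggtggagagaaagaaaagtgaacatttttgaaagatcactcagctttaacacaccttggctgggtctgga
LAMA3, chr18:23872770-23873069, plus strand: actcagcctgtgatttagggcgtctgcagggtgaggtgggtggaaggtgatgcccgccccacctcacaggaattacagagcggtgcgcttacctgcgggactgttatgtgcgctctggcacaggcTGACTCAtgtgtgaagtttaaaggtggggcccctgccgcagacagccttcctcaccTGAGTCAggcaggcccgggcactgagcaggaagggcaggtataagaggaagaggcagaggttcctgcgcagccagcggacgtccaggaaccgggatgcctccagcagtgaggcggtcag
LAMB3, chr1:209651325-209651624, minus strand: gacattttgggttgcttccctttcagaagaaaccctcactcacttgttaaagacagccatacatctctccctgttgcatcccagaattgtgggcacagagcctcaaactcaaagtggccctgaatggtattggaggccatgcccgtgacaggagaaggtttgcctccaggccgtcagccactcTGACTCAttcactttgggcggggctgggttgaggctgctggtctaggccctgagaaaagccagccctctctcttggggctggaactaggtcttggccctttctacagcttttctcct

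The LAMA3 window surrounds an internal start that lies 183577 bases inside the gene as deposited, and it held 2 matches to TGANTCA, which begin 125 and 69 bases before that start. The window of LAMB3 shown here, 1092 bases inside the gene, held 1 match that begins 67 bases before the start, and the windows of its other starts, 41 and 137 bases inside the gene, held none. COL17A1 had none and was AT-rich, with 40.7% GC against a median of 58.7% over all windows. Of the 35116 promoter windows in the table, chromosome 8 included, 7.71% held TGANTCA. Of the 11 member windows used, which leave out PLEC, 3 held it, the third being a DST window with its match 25 bases after the start. The sequence TTCNNNGAA, which STAT proteins bind, was present in 7.66% of all windows and in 0 of the 11, and CTTTGAT, a site of TCF factors, in 2.62% and 0. A match is a description of these letters, and binding was not measured here.

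The members fell into clearly different levels per length. ITGB4 and ITGA6 were the highest, with means over the 6 samples of 454 and 403 FPKM, and they stood above 99.6% of the tested genes. LAMB3 followed with 125 FPKM, PLEC with 98.6, COL17A1 with 44.1, LAMA3 with 32.2, LAMA5 with 31.5 and DST with 7.88 FPKM. Every neighbouring pair in this order stood the same way round in all 6 samples, except LAMA3 and LAMA5, where LAMA3 was the higher in 3 samples. The levels depend on the gene length that the authors used, which was 42341 bases for DST and 13522 bases for LAMA3. The longest protein-coding transcripts of these genes in the GENCODE annotation have 24709 and 10651 bases, so FPKM may understate the level of genes that are mostly read from short transcripts.

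**Figure D1:**
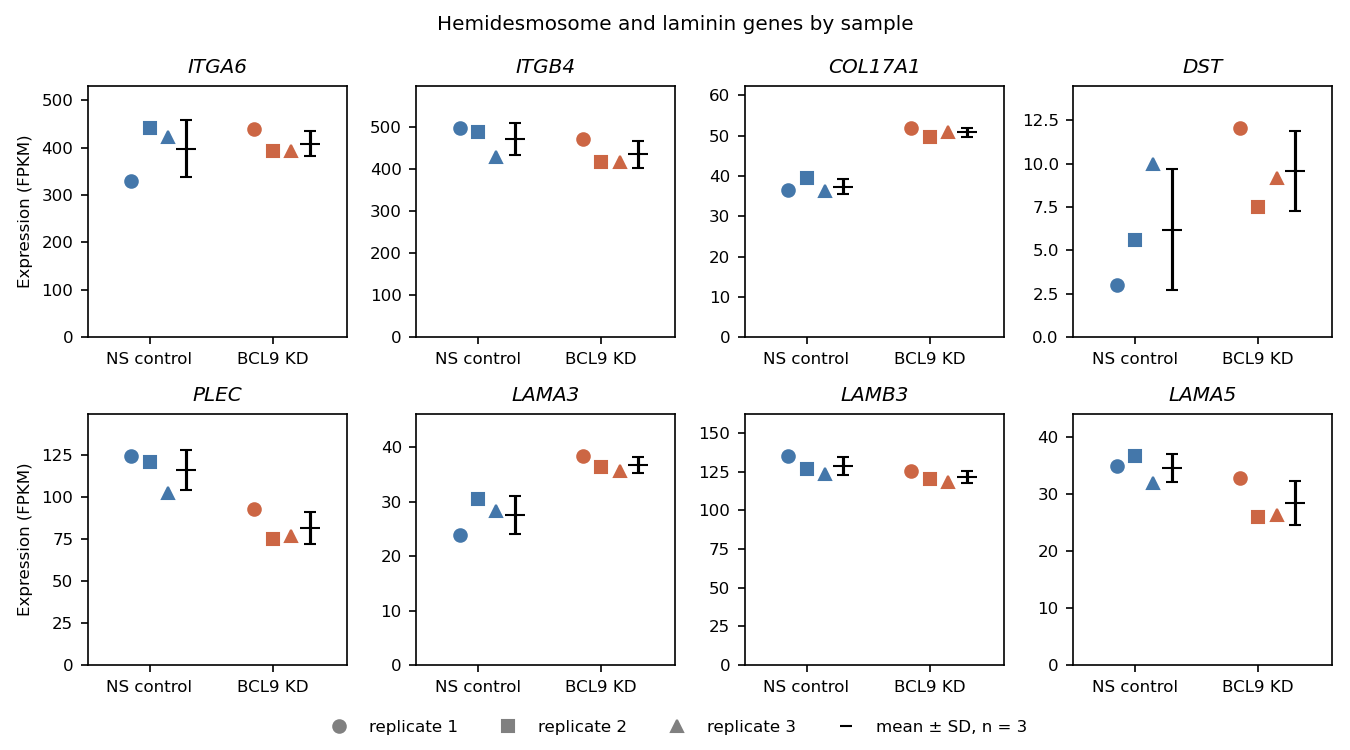
Expression of the 8 genes in FPKM (y axis, from 0) in NS control (blue) and BCL9 KD (orange) samples, with a symbol for each replicate and the mean ± SD of 3 replicates in black. COL17A1 and LAMA3 were higher and PLEC was lower in all 3 BCL9 KD samples than in all 3 NS control samples, and the other 5 genes overlapped between the groups.

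COL17A1 was the 1 member of 8 whose change passed the test, and it was higher after knockdown of BCL9. The difference between BCL9 KD and NS control was tested with limma on log2(FPKM + 0.5), with p-values adjusted over all 13745 genes, and a gene was called at an adjusted p-value under 0.05. The 1 of 8 members called higher stands beside 2.96% of all tested genes called higher and 5.87% called in either direction. No member was called lower, against 2.91% of all genes, although PLEC missed the threshold narrowly. The groups did not overlap for 3 of the 8 members, COL17A1, LAMA3 and PLEC, near the 34.2% of all tested genes without overlap. Those 3 were 2 higher, against 17.8% of all genes, and 1 lower, against 16.4%. An unadjusted p-value under 0.05 was found for 4 members and for 27.5% of all genes. Of the 8 log2 fold changes, 4 were above and 4 below 0, with a median of -0.02 against 0.04 over all tested genes and a range from -0.51 for PLEC to 0.70 for DST.

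ITGB4 (ENSG00000132470, chromosome 17, 75721328 to 75757818, plus strand, GRCh38) encodes the β4 subunit, whose long cytoplasmic tail binds plectin. Its level was 499, 488 and 429 FPKM in NS control and 473, 418 and 417 FPKM in BCL9 KD, in the order of the replicate numbers. The values of the groups overlapped, with means of 472 ± 37.7 and 436 ± 32.1 FPKM (SD, n = 3 each). The log2 fold change was -0.11 with a 95% interval from -0.33 to 0.11 (limma adjusted p = 0.456). Over the 17 settings the value ran from -0.27, with quantile normalization, to -0.07, without NS control replicate 1.
ITGA6 (ENSG00000091409, chromosome 2, 172427354 to 172506282, plus strand) encodes the α6 subunit, which also pairs with β1 in other laminin receptors. It was read at 329, 442 and 421 FPKM in NS control and at 439, 392 and 393 FPKM after knockdown. The lowest value was that of NS control replicate 1, the sample with low values in AT-rich genes, and the other 5 samples lay between 392 and 442 FPKM. The log2 fold change of ITGA6 was 0.05 with an interval from -0.25 to 0.34 (limma adjusted p = 0.823), and it turned to -0.08 without that sample, -0.05 with the GC correction and -0.07 with quantile normalization.
In each BCL9 KD sample, ITGA6 stood at nearly the same ratio to ITGB4, 0.928, 0.938 and 0.943, while the ratios in NS control were 0.660, 0.905 and 0.983. The groups overlapped in this ratio (two-sided exact permutation test, p = 0.7).

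COL17A1 (ENSG00000065618, chromosome 10, 104031286 to 104086002, minus strand) encodes a transmembrane collagen whose ectodomain reaches into the anchoring filaments. Its expression was 36.4, 39.5 and 36.2 FPKM in NS control and 51.9, 49.6 and 51.0 FPKM in BCL9 KD flasks. Every value after knockdown exceeded every NS control value, and the gap between the groups was wider than the range within either. The mean rose from 37.4 ± 1.84 to 50.8 ± 1.19 FPKM (SD, n = 3 each), which is 36.0% more. The log2 fold change was 0.44 ± 0.0658 (SE) with a 95% interval from 0.28 to 0.60 and an adjusted p-value of 0.0219 by limma. It rested on 3540 to 5314 reads in NS control and 5131 to 8583 reads in BCL9 KD samples. Over 17 other settings of the analysis the log2 fold change of COL17A1 stayed between 0.40 and 0.48, and it was called in 12 of them. Among the 5 that lost the call were the fits without NS control replicate 2 (limma adjusted p = 0.0838), BCL9 KD replicate 2 (0.122) or BCL9 KD replicate 3 (0.140), with a log2 fold change of 0.48, 0.46 and 0.44. In these fits only 8, 7 and 2 genes of the series were called higher, against 407 in the reported fit. Those called lower were 4, 6 and 3, against 400, and BCL9 itself was not called.

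Among 3906 other protein-coding genes with a mean of at least 10 FPKM, CLDN1 and ZC3H12A had the pattern over the 6 samples most like that of COL17A1. CLDN1 encodes the tight junction protein claudin 1 and ZC3H12A an RNase that limits inflammatory transcripts. Their centred log2 values differed from those of COL17A1 by a root mean square of 0.0408 and 0.0540, and their log2 fold changes of 0.47 and 0.50 follow from that choice.

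The plakins link the integrin and collagen XVII to the keratin filaments. PLEC (ENSG00000178209, chromosome 8, 143915147 to 143976734, minus strand), which encodes plectin, was read at 124, 121 and 102 FPKM in NS control and at 92.5, 74.9 and 76.8 FPKM in BCL9 KD replicates. Every BCL9 KD value was below every NS control value. The means were 116 ± 11.9 and 81.4 ± 9.67 FPKM (SD, n = 3 each), a level 29.7% lower in BCL9 KD, and the log2 fold change was -0.51 ± 0.114 (SE) with an interval from -0.78 to -0.24. At an adjusted p-value of 0.0501 by limma it was just outside the threshold, and it was called in 7 of 17 other settings, with values from -0.60 to -0.45 over all of them. Those 7 included voom on the recovered reads (-0.54 at an adjusted p of 0.0280), the correction for GC (-0.51 at 0.0237) and the fits without NS control replicate 3 (-0.59 at 0.0341) or BCL9 KD replicate 1 (-0.60 at 0.0370).
DST (ENSG00000151914, chromosome 6, 56457987 to 56954628, minus strand) encodes dystonin, whose epithelial form is the bullous pemphigoid antigen BPAG1. Its values were 3.02, 5.62 and 9.95 FPKM in NS control and 12.1, 7.47 and 9.16 FPKM after knockdown. The NS control samples differed widely among themselves, the highest of them lay inside the BCL9 KD range, and DST had the widest interval of the members. Its log2 fold change was 0.70 with an interval from -0.19 to 1.6 (limma adjusted p = 0.272). The value was 0.55 with the GC correction, 0.31 without NS control replicate 1 and 1.09 without NS control replicate 3 (limma adjusted p = 0.239, 0.504 and 0.0555), so this estimate rests on those samples.

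Of the other 5 plakins, all were tested and 1 was called lower, against 2.91% of all genes. EPPK1, which encodes epiplakin, a plakin that binds keratins, fell from 2.54 ± 0.316 to 0.812 ± 0.140 FPKM (SD, n = 3 each), with a log2 fold change of -1.21 and an adjusted p-value of 0.0117 by limma. The 3 BCL9 KD values of EPPK1 were 0.958, 0.800 and 0.678 FPKM and lay well below the lowest NS control value of 2.19 FPKM. EPPK1 was called in 13 of the 17 settings, with log2 fold changes from -1.68 to -0.97. Without BCL9 KD replicate 1 the plakins called lower were 2, with DSP added (-0.37 at an adjusted p of 0.0477 by limma), and without NS control replicate 2, BCL9 KD replicate 2 or BCL9 KD replicate 3 they were 0. The log2 fold changes of DSP, EVPL, MACF1 and PPL lay between -0.33 and 0.20, and the median of the 5 was -0.29, against 0.04 over all genes.

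LAMA3 (ENSG00000053747, chromosome 18, 23689443 to 23955066, plus strand) encodes the laminin α3 chain, which carries the integrin-binding domain of laminin-332. It was read at 23.9, 30.6 and 28.3 FPKM in NS control and at 38.5, 36.3 and 35.7 FPKM in BCL9 KD replicates. All BCL9 KD values were above all NS control values, and NS control replicate 1 was the lowest of the 6. The means were 27.6 ± 3.42 and 36.8 ± 1.47 FPKM (SD, n = 3 each), 33.6% more in BCL9 KD, and the log2 fold change was 0.42 ± 0.1004 (SE) with an interval from 0.18 to 0.66. LAMA3 did not pass the threshold (limma adjusted p = 0.0565). It passed after the correction for GC (0.42 at an adjusted p of 0.0251), with voom (0.39 at 0.0353) and among genes with a mean of at least 1 FPKM (0.42 at 0.0489), and its value was 0.32 without NS control replicate 1 (adjusted p = 0.0512).
LAMB3 (ENSG00000196878, chromosome 1, 209614870 to 209652466, minus strand) encodes the β3 chain that assembles with α3 inside the cell before secretion. Its level was 135, 127 and 124 FPKM in NS control and 126, 120 and 118 FPKM after knockdown. The groups overlapped, and the log2 fold change was -0.08 with an interval from -0.24 to 0.08 (limma adjusted p = 0.449). Over the 17 settings it ran from -0.19, with quantile normalization, to -0.05, without NS control replicate 1.
LAMA5 (ENSG00000130702, chromosome 20, 62307955 to 62367312, minus strand) encodes the α5 chain found in laminin-511 and laminin-521. Its values were 35.0, 36.8 and 31.9 FPKM in NS control and 32.9, 26.0 and 26.3 FPKM after knockdown. The highest BCL9 KD value exceeded the lowest NS control value, and the log2 fold change was -0.29 with an interval from -0.54 to -0.03 (limma adjusted p = 0.149). The reads of ADRM1 and of LAMA5-AS1, which overlap LAMA5 on the opposite strand at 14.0 and 0.205 FPKM, may not be separable from it, since the use of strand in the counting is not given in the sources used here.

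**Figure D2:**
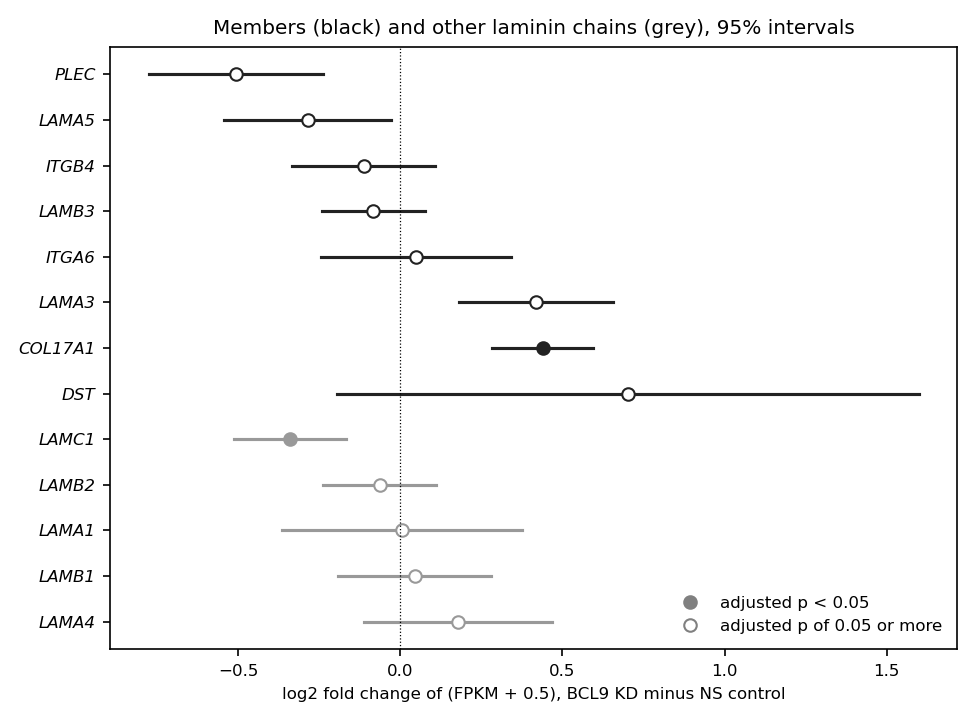
Log2 fold change of (FPKM + 0.5), BCL9 KD minus NS control (x axis), for the 8 members in black and the 5 other laminin chains tested in grey, with 95% intervals from limma. Filled points have an adjusted p-value under 0.05, which were COL17A1 at 0.44 and LAMC1 at -0.34.

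Laminin chains outside the members were 8, of which LAMA2, LAMB4 and LAMC3 had a mean under 0.5 FPKM. Among the 5 tested, LAMC1 was called lower, against 2.91% of all genes, and none higher. LAMC1 encodes the γ1 chain, which laminin-511 and laminin-521 share and laminin-332 lacks. It fell from 116, 125 and 114 FPKM in NS control to 99.6, 90.4 and 90.4 FPKM after knockdown, and its log2 fold change was -0.34 with an interval from -0.51 to -0.17 (limma adjusted p = 0.0466). This call held in 9 of 17 settings, with log2 fold changes from -0.44 to -0.30. LAMB1, LAMB2, LAMA1 and LAMA4 had log2 fold changes between -0.06 and 0.18, and none was called.

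Ratios between members within a sample cannot be changed by a scaling of whole samples. In NS control replicates, LAMA3 stood at 0.176, 0.241 and 0.229 of the FPKM of LAMB3, and in BCL9 KD replicates at 0.306, 0.303 and 0.302. The BCL9 KD samples agreed closely and lay above all NS control samples, with a difference of 0.51 in the log2 ratio. The ratio of LAMA3 to LAMA5 was 0.681, 0.832 and 0.886 in NS control and 1.17, 1.40 and 1.36 in BCL9 KD, and LAMA3 was the lower of both α chains in every NS control and the higher in every BCL9 KD sample.
For COL17A1 against PLEC, the ratio was 0.293, 0.327 and 0.354 in NS control and 0.561, 0.662 and 0.664 in BCL9 KD, a difference of 0.95 on the log2 scale. COL17A1 against ITGB4 gave 0.0730, 0.0809 and 0.0844 in NS control and 0.110, 0.119 and 0.122 in BCL9 KD, the log2 difference being 0.56. DST against PLEC ran from 0.0242 to 0.0974 in NS control and from 0.0997 to 0.130 in BCL9 KD, with hardly any gap between the groups.
The groups overlapped for ITGA6 to ITGB4 and not for the other 5 of the 6 pairs compared. Each of these 5 holds COL17A1, LAMA3 or PLEC, the members whose own groups did not overlap, so they are no separate result, and the share over all pairs of genes was not computed. In these 5 the two-sided exact permutation p was 0.1, the smallest that 3 samples against 3 allow, and 0.12 after adjustment over the 6 pairs, so the design could not reach the threshold. NS control replicate 1 had the lowest ratio in all 6 pairs, and in each pair the first gene has the lower transcript GC content. Without this sample the log2 differences were 0.37 for LAMA3 to LAMB3, 0.60 for LAMA3 to LAMA5, 0.88 for COL17A1 to PLEC, 0.50 for COL17A1 to ITGB4 and 0.78 for DST to PLEC, which was 1.27 with it and 1.78 without NS control replicate 3.

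**Figure D3:**
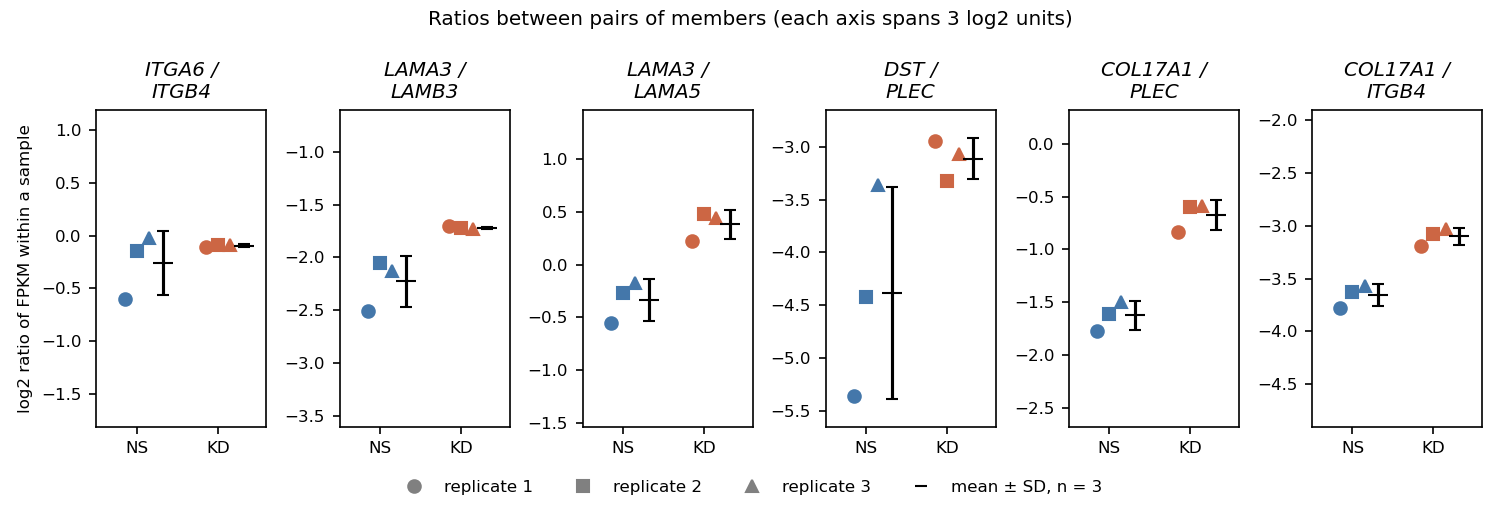
Log2 ratio of the FPKM of 2 members within each sample (y axis, spanning the same number of log2 units in every panel) for NS control (blue) and BCL9 KD (orange), with a symbol for each replicate and the mean ± SD of 3 in black. The BCL9 KD samples lay above the NS control samples in the 5 panels with COL17A1, LAMA3 or PLEC, whose own groups did not overlap, and the log2 difference was largest for DST to PLEC, at 1.27, where NS control spread most.

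Both genes called among the other basement membrane genes fell. Of 16 listed, 10 were tested, 2 were called lower, against 2.91% of all genes, and none higher. Their median log2 fold change was -0.02, and it was -0.09 without NS control replicate 1 and -0.05 with the GC correction, which also called COL18A1 higher (0.37 at an adjusted p of 0.0271 by limma). Over the 17 settings the number called lower ran from 0 to 3, the 3 with voom, where HSPG2 was called as well (-0.51 at an adjusted p of 0.0388 by limma). COL18A1, with 0.38 and no call in the reported fit, was called too among genes with a mean of at least 1 FPKM. The groups did not overlap for 6 of the 10, against 34.2% of all genes. COL4A1, COL4A2 and HSPG2 were the 3 lower, against 16.4% of all genes, and COL18A1, COL4A5 (log2 fold change 0.31) and COL4A6 (0.37) the 3 higher, against 17.8%, with no call for the last 3 or HSPG2 in the reported fit. Both called genes encode chains of the main collagen IV network of basement membranes. COL4A1 fell from 30.3 ± 2.06 to 20.0 ± 0.708 FPKM (SD, n = 3 each), which is -0.59 on the log2 scale with an adjusted p-value of 0.0152 by limma. COL4A2 fell from 68.3 ± 2.06 to 54.9 ± 2.42 FPKM, or -0.31 on the log2 scale with an adjusted p-value of 0.0456 by limma. Over the 17 settings, COL4A1 was called in 13 and COL4A2 in 7. The anchoring fibril gene COL7A1, with a mean under 0.5 FPKM, and the nidogen genes NID1 and NID2, at or near 0, were not tested.

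None of 8 laminin receptors and partners of the hemidesmosome was called, where 5.87% of all genes were. Their median log2 fold change was 0.06, and it was 0.11 without NS control replicate 1 and 0.09 with the GC correction. The largest values were those of ITGB1, the β1 integrin subunit, at 0.51 (limma adjusted p = 0.0997), and ERBIN, a binding partner of β4 integrin listed in the table as ERBB2IP, at 0.44 (limma adjusted p = 0.352). ITGB1 was read at 71.8, 103 and 112 FPKM in NS control and 130, 136 and 136 FPKM in BCL9 KD, with its lowest value again in NS control replicate 1. Both are AT-rich, and with the GC correction the log2 fold changes were 0.31 for ITGB1 (limma adjusted p = 0.0388) and 0.14 for ERBIN (0.474). Without NS control replicate 1, ITGB1 had 0.32 (adjusted p = 0.0507 by limma), and without NS control replicate 3 it had 0.64 and was called (0.0479). ERBIN ran from 0.11 to 0.74 over the 17 settings and was called in none. KRT5 and KRT14, the keratins that hemidesmosomes anchor, had log2 fold changes of 0.05 and 0.07.

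Proteases that cut laminin-332 or shed collagen XVII included changes in expression past the threshold. Of 11 listed, 8 were tested and 3 were called higher, against 2.96% of all genes, and none lower. The median log2 fold change of the 8 was 0.43, against 0.04 over all genes, and it was 0.23 without NS control replicate 1 and 0.27 with the GC correction. PLAT, the tissue-type plasminogen activator, was read at 38.9, 38.5 and 40.8 FPKM in NS control and at 78.6, 82.4 and 81.9 FPKM in BCL9 KD replicates. It was the largest change of this list, with a log2 fold change of 1.03 ± 0.0618 (SE) and an adjusted p-value of 0.00269 by limma, although PLG, the gene of its substrate plasminogen, was at 0 in all samples. MMP2, a gelatinase that cleaves laminin-332, rose from 9.16 ± 0.269 to 15.9 ± 0.640 FPKM (SD, n = 3 each), or 0.76 on the log2 scale with an adjusted p-value of 0.00753 by limma. MMP14, the membrane protease that activates pro-MMP2 and also cleaves laminin-332, rose from 51.3 ± 2.25 to 67.0 ± 1.18 FPKM, or 0.38 on the log2 scale with an adjusted p-value of 0.0290 by limma. Over the 17 settings, PLAT was called in 16, MMP2 in 13 and MMP14 in 9. Of the collagen XVII sheddases, ADAM9 and ADAM10 had log2 fold changes of 0.48 and 0.52 and ADAM17 of -0.13, none of them called. ADAM9 was read at 22.1, 39.2 and 50.6 FPKM in NS control and between 49.2 and 49.9 FPKM in BCL9 KD samples, the lowest again in NS control replicate 1. Without that sample the values were 0.15 for ADAM9 and 0.24 for ADAM10, without NS control replicate 3 they were 0.74 and 0.73 (adjusted p = 0.0764 and 0.0619 by limma), and after the correction for GC they were 0.22 and 0.32.

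Of the genes called outside the members, PLAT was called with each replicate left out in turn, at adjusted p-values from 0.00588 to 0.0456 by limma. In the fits without NS control replicate 2, BCL9 KD replicate 2 or BCL9 KD replicate 3, few genes of the series were called. COL4A1, EPPK1, MMP2 and MMP14 lost the call there. Their log2 fold changes stayed close, as for COL4A1 (-0.54, -0.57 and -0.58), MMP2 (0.76, 0.74 and 0.75) and EPPK1 (-1.19, -1.21 and -1.14). LAMC1 lost it also without NS control replicate 1 (adjusted p = 0.0529 by limma), and COL4A2 kept it only without NS control replicate 3 (adjusted p = 0.0430 by limma).

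**Figure D4:**
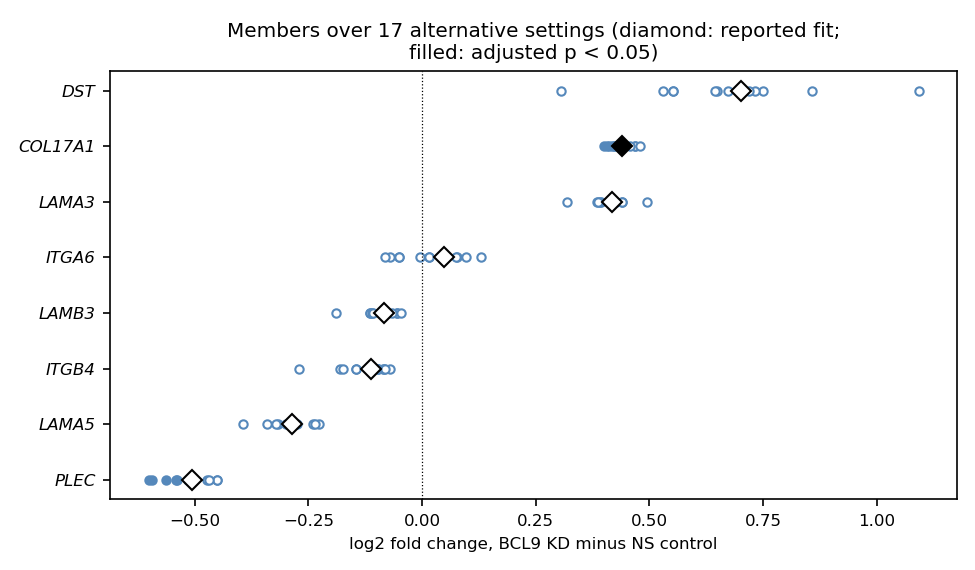
Log2 fold change of each member, BCL9 KD minus NS control (x axis), in the reported fit (black diamond) and in 17 other settings (blue circles), filled where the adjusted p-value was under 0.05. COL17A1 stayed between 0.40 and 0.48 and PLEC between -0.60 and -0.45, while ITGA6 lay on both sides of 0 and DST ran from 0.31 to 1.09.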

How the data were processed

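RNA of 3 NS control and 3 BCL9 KD samples of DCIS.COM cells was sequenced as paired-end libraries. The authors used STAR for alignment and HTSeq 0.6.1 for counting per gene, and deposited FPKM for each sample beside the gene length in bases, a column in other units. The submitters' processing notes also name hg38 and CASAVA. The product of FPKM and gene length was a whole multiple of 1 step in each sample (tolerance 0.1, 100% of the low values checked), which returned the reads. No column of per-sample values was left unmapped.

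Genes with a mean of at least 0.5 FPKM over the 6 samples were compared in R 4.3.3 with limma 3.58.1 (empirical Bayes with a mean-variance trend), as the difference of BCL9 KD from NS control in log2(FPKM + 0.5), without covariates and with Benjamini-Hochberg adjustment over all tested genes. The added value understates fold changes of low genes. The authors tested counts with DESeq2, naming 2 replicates for each condition where the labels and the table give 3, and all 3 were used. Here limma on the deposited FPKM was the main test, and voom on the recovered reads an alternative. Intervals are 95% limma intervals for single genes. Ratios of members used two-sided exact permutation tests in Python 3.11.15. The GC correction removed from each sample a loess curve (span 0.3) against transcript GC, from GENCODE transcripts on GRCh37, known for 98.8% of the tested genes. No coordinates were moved between builds. Gene positions are those of GRCh38, and promoter windows came from RefSeq. The member windows leave out chromosome 8 and so PLEC, while the windows of all genes include it.

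The members and lists were chosen with earlier results of these data known. The genes named are all members, BCL9, the called genes of each list (at most 4, or the 2 largest changes where none was called) and, for called members, the 2 genes most alike. Uncalled genes given as ranges or examples were added after their values were seen. A gene of the context lists is not reported here and was left out of their counts. Reads carried no molecular identifiers, so read numbers speak for counting error only. Alternatives were 2 other added values, 2 other filters, 2 other scalings, no trend, voom, the GC correction, a replicate block, both together and each replicate left out.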

Additional observations from a re-analysis of the deposited data

How the results depend on the processing

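Over the 17 other settings, the direction of 7 members was kept in every fit. ITGA6 turned from 0.05 to -0.0696 (quantile normalization) and -0.0517 (GC correction), with or without the replicate block. It ran from -0.0818 to 0.130 with each replicate left out, below 0 without NS control replicate 1 and, at -0.00507, without BCL9 KD replicate 1. The log2 difference of the ITGA6 to ITGB4 ratio ran from -0.0107, without NS control replicate 1, to 0.277. Genes called were 407 higher and 400 lower. They were 70 and 72 with no filter, 182 and 150 without the trend, 645 and 744 with voom, 750 and 989 with the GC correction and 470 and 613 with quantile normalization. With each replicate left out they ran from 2 to 908 higher and from 3 to 804 lower, and they were 2 and 3 without BCL9 KD replicate 3, 7 and 6 without BCL9 KD replicate 2 and 8 and 4 without NS control replicate 2, where BCL9 was not called either. With the replicate block 0 genes were called in either direction by limma (3235 at an unadjusted p under 0.05), and 161 and 216 with the GC correction and the block together. Across genes, the deviations of samples with the same number correlated at -0.0795 on average, and those with other numbers at 0.0387. Deviations from a group mean sum to 0, so the second value largely follows from the first. The labels give no pairing of the flasks, but these correlations cannot exclude one. Members called higher were 2 instead of 1 with a mean of at least 1 FPKM, voom or the GC correction, 0 with the block, alone or with the GC correction (COL17A1 at adjusted p-values of 0.0926 and 0.0509 by limma), and 0 to 1 with each replicate left out. Members called lower were 1 instead of 0 with an added value of 1 FPKM, a mean of at least 1 FPKM, quantile normalization, voom or the GC correction, PLEC in each, and 0 to 1 with each replicate left out. The cause of these shifts was not tested.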
